A study of Mus musculus with 6 samples.

Results

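The interferon response genes were a list of 45 mouse genes, out of 49315 genes counted in the series, that were chosen by name and matched to identifiers through the GENCODE mouse annotation of GRCm38. They comprise 4 interferon receptor chains, 2 receptor-associated kinases, 8 transcription factors of the pathway, 6 genes of the Ifit and Ifitm families, 3 genes of the ISG15 system, 9 nucleic acid sensors and RNA-acting enzymes, 8 membrane and other antiviral effectors and 5 interferon-inducible GTPases. RNA was sequenced in bulk from sorted hematopoietic stem and progenitor cells of mouse bone marrow, with 6 libraries in all. The question for these genes was how their RNA differed between ING4-/- and WT cells, and among 3 populations of the stem and progenitor compartment.

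The WT group held 1 library each of long-term hematopoietic stem cells (LT-HSCs), short-term hematopoietic stem cells (ST-HSCs) and multipotent progenitors (MPPs) from mice with intact Ing4. The ING4-/- group held the same 3 populations from mice that lack Ing4, a chromatin-associated tumor suppressor. The labels name no interferon or other treatment for either genotype. The study describes its WT controls as young adult C57BL/6 mice. It gives an age for ING4-/- mice in its fluorouracil experiment, but its RNA-seq methods give none for the mice pooled there. Marrow of several mice was pooled before sorting, so each library is 1 pool, and the populations were taken from the LSK gate (lineage-negative cells with Sca-1 and c-Kit) by CD48, CD34 and CD150. With 1 library per population and genotype, the 3 populations stood in for replicates of a genotype, and every p-value below measures the spread between populations and libraries together rather than between animals. In bulk samples, fewer cells of a type and less RNA per cell cannot be told apart.

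Type I interferons signal through IFNAR1 and IFNAR2, and type II interferon through IFNGR1 and IFNGR2. The receptors carry JAK-family kinases that phosphorylate STAT proteins, and STAT2 together with IRF9 forms part of the ISGF3 complex, which binds interferon-stimulated response elements (ISREs), while STAT dimers induced by type II interferon bind gamma-activated sites (GAS). The induced genes encode antiviral proteins, and interferon is known to push quiescent HSCs into cycle, while stem cells are also known to keep a set of these genes on without stimulation.

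Promoter sequences are shown here because ISRE and GAS are the DNA elements through which the pathway is known to act. The letters GAAANNGAAA for an ISRE and TTCNNNGAA for a GAS were searched on both strands from 250 bases before to 50 bases after each annotated start, in RefSeq promoters of GRCm38.p6. ISRE matches 6 bases apart overlap each other and were counted separately. RefSeq promoters were found for 39 members, with 48 promoters among them, and not for Usp18, Zbp1, Mx1, Mx2, Rtp4 and Parp14. The ISRE letters were present in 18 of the 48 promoters (37.5%), against 3.44% of all 32851 promoters of the table, and the GAS letters in 16 (33.3%), against 8.30% of all. Of the 39 members 27 had ISRE or GAS letters in a promoter and the others had neither. These are matches of letters and not measured sites. The following stretches each end at the base before the start, with ISRE matches in capitals, except for that of Irf1, where the capitals mark a GAS match. Isg15 (chr4:156200819-156200958, minus strand) has 3 overlapping matches, Ifit1 (chr19:34640749-34640888, plus strand) 2 separate ones on the opposite strand, Ifitm2 (chr7:140955962-140956101, minus strand) 1, Bst2 (chr8:71537473-71537612, minus strand) 2 overlapping ones, Igtp (chr11:58199416-58199555, plus strand) 1, and Irf1 (chr11:53769874-53770013, plus strand) 1 GAS match. The stretches of Bst2 and Igtp also hold a GAS match each, left in lower case but where it overlaps the ISRE letters.
Isg15: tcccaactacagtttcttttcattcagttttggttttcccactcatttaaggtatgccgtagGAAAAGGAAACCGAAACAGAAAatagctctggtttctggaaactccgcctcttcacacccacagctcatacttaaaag
Ifit1: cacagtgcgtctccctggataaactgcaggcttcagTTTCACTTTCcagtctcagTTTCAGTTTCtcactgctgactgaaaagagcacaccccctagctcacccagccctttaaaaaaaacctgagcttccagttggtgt
Ifitm2: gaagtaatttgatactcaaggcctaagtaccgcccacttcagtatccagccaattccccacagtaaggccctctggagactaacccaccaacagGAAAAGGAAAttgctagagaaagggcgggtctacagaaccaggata
Bst2: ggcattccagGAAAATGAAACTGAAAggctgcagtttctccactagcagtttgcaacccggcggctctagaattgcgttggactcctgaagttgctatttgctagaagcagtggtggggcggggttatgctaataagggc
Igtp: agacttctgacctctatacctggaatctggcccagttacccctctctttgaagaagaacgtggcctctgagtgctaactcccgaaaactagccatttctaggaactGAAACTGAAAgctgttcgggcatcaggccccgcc
Irf1: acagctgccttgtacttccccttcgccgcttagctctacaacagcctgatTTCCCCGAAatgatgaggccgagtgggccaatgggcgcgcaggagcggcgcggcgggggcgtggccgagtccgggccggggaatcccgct
In Ifitm3 the ISRE letters lie after the start, in the 30 bases at chr7:141010715-141010744 on the minus strand, with a GAS match that overlaps the second of them and is not marked.
Ifitm3: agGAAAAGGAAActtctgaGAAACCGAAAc

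The depth of the libraries differed by genotype. The WT libraries held 7839326 to 9363442 counts and the ING4-/- libraries 35596876 to 39192588, a 4.70-fold ratio of the medians. Olfactory and vomeronasal receptor genes, which stem and progenitor cells are not expected to transcribe, carried 18.1 to 22.7 counts per kb of exon in the WT libraries and at most 0.0853 in the ING4-/- libraries. This background, multiplied over all exons, came to between 22.6% and 33.4% of the counts of a WT library and at most 0.0280% of those of an ING4-/- library. Genotype, depth and background cannot be told apart in this design, and the background expected over each member is therefore given beside its values. In the order LT-HSC, ST-HSC and MPP, Ing4 itself was counted 247, 162 and 247 times in WT, where the background was 119, 121 and 96.3, and 0, 24 and 76 times in ING4-/- libraries (log2 fold change -4.49, SE 1.56, adjusted p = 0.0373 in edgeR). The ING4-/- background over Ing4 was 0.454, 0.369 and 0.206 counts, so that the 24 and 76 counts in ING4-/- ST-HSCs and MPPs were above it. Kit, Ly6a, Cd34, Slamf1, Cd48 and Flt3, surface markers of the compartment of which Flt3 was not part of the gate, summed to 797 to 1733 CPM (counts relative to the TMM-scaled library total) in WT and 1409.7 to 3180.2 CPM in ING4-/- libraries. Cd48, whose protein was gated against, had 50, 154 and 376 counts in WT and 0, 1077 and 4300 in ING4-/- libraries, and Flt3 had 1 count in ING4-/- LT-HSCs.

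In the genotype comparison all 45 members were tested, 7 were called higher in ING4-/- cells, 2 were called lower and 36 were not called. Called means an adjusted p under 0.05 and a log2 fold change beyond 1 in edgeR's quasi-likelihood test over all 31001 genes tested. The 7 higher members were Ifitm1, Ifitm2 and Ifitm3, the receptor chain Ifngr2, Bst2, Ifi35 and Rtp4, and the 2 lower members were Mx1 and Mx2. Among all genes tested, 7.98% were called higher and 56.7% were called lower. A closer background is the set of 9673 genes that had 10 or more counts in each of the 6 libraries, of which 24.3% were called higher and 6.53% lower. Of the 42 members in that set, 7 (16.7%) were called higher and 0 lower, so that the share called higher was below that of comparably measured genes. The median log2 fold change of these 42 members was 0.40, with 29 positive and 13 negative, against a median of 0.52 over the 9673 genes. By that reference 19 of the 42 members lay above and 23 below it, and 4 of the called members (Ifitm1, Ifitm2, Ifitm3 and Ifngr2) lay more than 1 above it. Over all 45 members the median was 0.25.

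**Figure D1:**
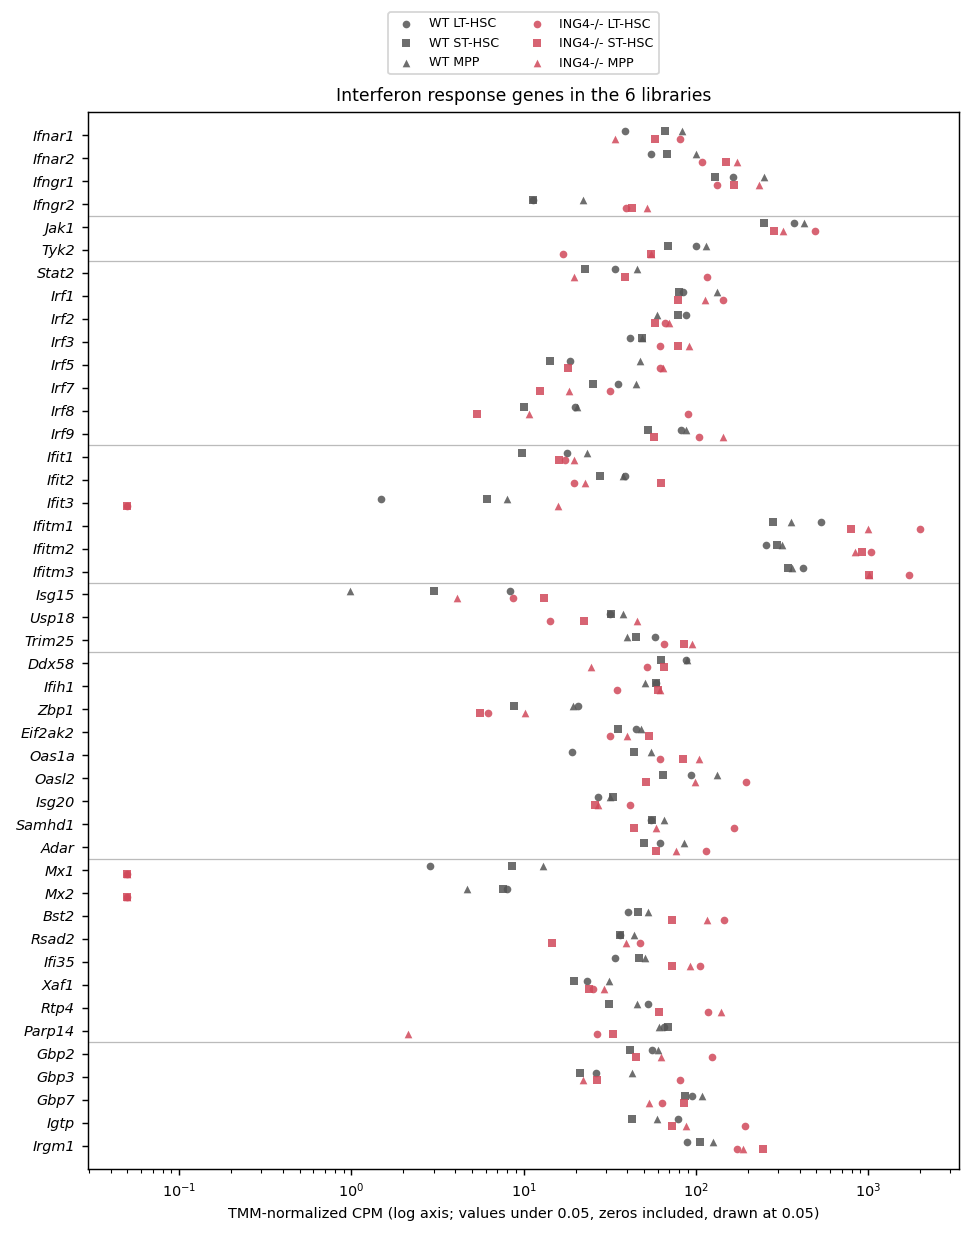
TMM-normalized CPM of each of the 45 members (log x axis) in the 6 libraries, 1 symbol per library, grey for WT and red for ING4-/-, with lines between the role groups and values under 0.05 drawn at 0.05. The ING4-/- symbols lie above all WT symbols for 12 members, below them for 5 and among them for 28, with no share over all genes computed for comparison.

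Levels are given below as CPM after TMM normalization, in the order LT-HSC, ST-HSC and MPP. In 12 members all 3 ING4-/- libraries lay above all 3 WT libraries, in 5 they lay below, and in 28 the groups overlapped. The shares of all genes with such separation were not computed, so these counts, and the separations named below, cannot be read as particular to the members. Compared within populations, ING4-/- exceeded WT in all 3 populations for 17 of the 42 members with at least 10 counts (40.5%, against 44.7% of the 9673 genes) and below it in all 3 for 5 (11.9%, against 17.6%), while 20 were mixed.

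The receptor chains differed among themselves. Ifngr2 (chr16:91547072-91565169), the signaling chain of the type II receptor, had 11.3, 11.3 and 22 CPM in WT and 39, 42.4 and 52.2 CPM in ING4-/- libraries. The ING4-/- libraries were all above the WT libraries, at a mean of 44.6 ± 6.82 against 14.8 ± 6.17 CPM (SD, n = 3 libraries), and the gene was called higher (log2 fold change 1.58, SE 0.439, adjusted p = 0.0146). Its WT counts of 107, 105 and 224 were 1.39 to 3.74 times the background, and up to 71.8% of them was at the background. After background subtraction its log2 fold change was 1.79 and it was not called (adjusted p = 0.0927). Ifnar2 (chr16:91372783-91405589), the high-affinity chain of the type I receptor, had 54.9, 67.9 and 99.4 CPM in WT and 109, 149 and 173 CPM in ING4-/- libraries. These groups did not overlap either, but the log2 fold change of 0.96 (SE 0.307, adjusted p = 0.0270) was under the fold minimum, so it was not called. Ifngr1, the ligand-binding chain of the type II receptor, was the most abundant receptor per kb of exon, with 63.1 CPM per kb in WT and 62.3 in ING4-/- cells. Its libraries overlapped at 164, 129 and 247 CPM in WT and 132, 167 and 233 CPM in ING4-/- cells (log2 fold change -0.020, SE 0.321, adjusted p = 0.963). Ifnar1, the partner chain of Ifnar2, ran in opposite orders, with 38.9, 66.3 and 83.3 CPM in WT and 80.4, 57.6 and 34.0 CPM in ING4-/- cells. Its groups overlapped and its log2 fold change was -0.13 (SE 0.430, adjusted p = 0.811).

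The 2 kinases bind the receptors' cytoplasmic tails. Jak1, which serves both receptor types, overlapped between genotypes at 369.6, 249 and 422 CPM in WT and 492, 283 and 318 CPM in ING4-/- libraries (log2 fold change 0.071, SE 0.287, adjusted p = 0.848). Tyk2, the partner of IFNAR1, had 99.4, 69.1 and 114 CPM in WT and 16.9, 54.6 and 55.0 CPM in ING4-/- libraries. All ING4-/- libraries lay below the WT libraries, with the LT-HSC library lowest, but the log2 fold change of -1.16 (SE 0.487) missed the threshold at an adjusted p of 0.0719. It was called lower after background subtraction (-1.72, adjusted p = 0.0219).

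None of the 8 transcription factors was called, with a median log2 fold change of 0.60 and 6 positive. Irf3, a constitutive factor activated by nucleic acid sensing, had 41.2, 48.7 and 48.4 CPM in WT and 62.1, 78.4 and 90.9 CPM in ING4-/- libraries. The groups did not overlap, and the log2 fold change of 0.74 (SE 0.269, adjusted p = 0.0430) stayed under the fold minimum. Irf7, an interferon-induced factor that amplifies the type I response, had 35.1, 25.3 and 44.9 CPM in WT and 31.8, 12.4 and 18.4 CPM in ING4-/- libraries. It was lower in ING4-/- cells in each population, the groups overlapped and it was not called (-0.75, SE 0.496, adjusted p = 0.226). Irf9, the DNA-binding subunit of ISGF3, had 81.4, 52.8 and 86.9 CPM in WT and 104, 57.2 and 143 CPM in ING4-/- libraries, with the groups overlapping (0.46, SE 0.385, adjusted p = 0.335). Its partner Stat2 had 33.9, 22.8 and 45.4 CPM in WT against 116, 38.7 and 19.7 CPM in ING4-/- libraries. The ING4-/- LT-HSC library was the highest and the ING4-/- MPP library the lowest of the 6 (0.77, SE 0.665, adjusted p = 0.350). Irf5, a factor of myeloid cells, was above WT in each population at 61.6, 18 and 64.3 CPM against 18.5, 14.2 and 47.1 CPM, with overlap between the groups (0.85, SE 0.660, adjusted p = 0.301). Irf8, which directs monocyte and dendritic cell development, was high in the ING4-/- LT-HSC library alone, at 89.7 CPM, against 5.34 and 10.8 CPM in the other ING4-/- libraries and 10.0 to 20.5 CPM in WT. Its WT counts were 0.580 to 1.64 times the background. Irf1, the most abundant factor per kb of exon (24.9 CPM per kb in WT and 28.0 in ING4-/- cells), had 83.6, 79.9 and 133 CPM in WT and 143, 78.8 and 113 CPM in ING4-/- libraries. It and Irf2, its antagonist, had log2 fold changes of 0.17 and -0.23, with overlapping groups.

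The Ifitm genes held the highest levels and the largest positive log2 fold changes of the list. The IFITM proteins are small membrane proteins that block entry of enveloped viruses, and in stem cells they are known to be expressed without interferon. Ifitm3 (chr7:141009586-141010770), Ifitm2 (chr7:140954837-140955987) and Ifitm1 (chr7:140967221-140969825) lie in 1 cluster on chromosome 7. Ifitm3 had 419, 339.9 and 359 CPM in WT and 1723, 1012 and 1015 CPM in ING4-/- libraries. Ifitm2 had 254, 295 and 316 CPM in WT and 1032, 923 and 841 CPM in ING4-/- libraries. Ifitm1 had 534, 279.8 and 355 CPM in WT and 1989.9, 792 and 994 CPM in ING4-/- libraries. For each of the 3 genes every ING4-/- library lay above every WT library, and the ING4-/- LT-HSC library was the highest of the 6. Mean levels were 1250.2 ± 409.7 CPM in ING4-/- and 372 ± 41.2 CPM in WT for Ifitm3, and 932 ± 95.5 and 288 ± 31.5 CPM for Ifitm2 (SD, n = 3 libraries). The log2 fold changes were 1.75 for Ifitm3 (SE 0.248, adjusted p = 7.21e-04), 1.69 for Ifitm2 (SE 0.16, adjusted p = 6.57e-04) and 1.69 for Ifitm1 (SE 0.403, adjusted p = 0.00719). Their WT counts of 2411 to 5072 were at least 104 times the background, and at most 0.957% of them was at the background. The difference in Ifitm2 and Ifitm3 kept its sign and an adjusted p under 0.05 after background subtraction, at log2 fold changes of 0.89 (adjusted p = 0.00271) and 0.94 (adjusted p = 0.0184), though below the fold minimum, while Ifitm1 did not pass (0.90, adjusted p = 0.117). Without the WT MPP library Ifitm1 was not called (adjusted p = 0.0503). Reads of Ifitm2 may be split or shared with other loci, since 48.5% of the 50-base words in its transcript also occur in other genes, Gm45717 foremost, against 10.0% for Ifitm3 and 5.02% for Ifitm1.

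The Ifit genes encode cytoplasmic proteins that bind foreign RNA ends, and they are among the most strongly interferon-induced genes. Ifit1 had 17.8, 9.80 and 23.3 CPM in WT and 17.4, 16.1 and 19.5 CPM in ING4-/- libraries, and Ifit2 had 38.9, 27.7 and 37.6 CPM in WT and 19.6, 62.5 and 22.6 CPM in ING4-/- libraries. Both overlapped between the genotypes, with log2 fold changes of 0.060 (SE 0.503) and 0.0079 (SE 0.529) and adjusted p values of 0.928 and 0.991. Ifit3 had 14, 57 and 81 counts in WT and 0, 0 and 535 counts in ING4-/- libraries. All of its ING4-/- counts came from MPPs, where its level of 15.8 CPM was above the 7.95 CPM of WT MPPs. Its neighbor copy Ifit3b, with which 51.2% of its 50-base words are shared, showed the same layout at 69, 49 and 68 counts in WT and 0, 0 and 176 counts in ING4-/- libraries. The WT counts of Ifit3 were 0.358 to 2.56 times the background, and a count of 0 in the ING4-/- LT-HSC and ST-HSC libraries allows up to 3 counts, or 0.0843 and 0.0793 CPM.

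The ISG15 system attaches the ubiquitin-like ISG15 to proteins and removes it. Isg15, whose promoter carries the 3 overlapping ISRE matches printed above, had 79, 28 and 10 counts in WT and 271, 414 and 139 counts in ING4-/- libraries. These equal 8.32, 3.01 and 0.981 CPM in WT and 8.66, 13.1 and 4.10 CPM in ING4-/- libraries, among the lowest levels of the list and overlapping between the groups (log2 fold change 1.07, SE 0.884, adjusted p = 0.330). Trim25, a ligase that acts with the sensor RIG-I and can also conjugate ISG15, had 58.0, 44.8 and 39.8 CPM in WT and 64.9, 85.5 and 95.1 CPM in ING4-/- libraries. Its groups did not overlap, and its log2 fold change of 0.78 (SE 0.287, adjusted p = 0.0450) was under the fold minimum. Usp18, the protease that removes ISG15 and dampens receptor signaling, was the most abundant of the 3 per kb in WT cells (12.2 CPM per kb). It had 31.8, 32.2 and 37.8 CPM in WT and 14.2, 22.4 and 45.6 CPM in ING4-/- libraries, which overlapped (-0.31, SE 0.504, adjusted p = 0.625).

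None of the 9 nucleic acid sensors and RNA-acting enzymes was called, with a median log2 fold change of 0.042 and 5 of 9 positive. Oas1a, which makes the 2-5A that activates RNase L, had 19.0, 43.6 and 54.6 CPM in WT and 61.8, 84.1 and 105 CPM in ING4-/- libraries. The groups did not overlap, and the log2 fold change of 1.10 (SE 0.444) had an adjusted p of 0.0638. With population as a term in the fit, which compares genotypes within LT-HSCs, ST-HSCs and MPPs, Oas1a was called higher (adjusted p = 0.0369), giving 8 members in place of 7. Of its 50-base words 57.6% also occur in Oas1g. Zbp1, a sensor of Z-form nucleic acid linked to cell death, had 20.5, 8.83 and 19.4 CPM in WT and 6.17, 5.57 and 10.1 CPM in ING4-/- libraries. It was lower in ING4-/- cells in each population, with overlap between the groups (-1.16, SE 0.592, adjusted p = 0.128), and its lowest WT count was 1.02 times the background. Ddx58, which encodes RIG-I, had 87.5, 62.9 and 88.5 CPM in WT and 51.6, 65.0 and 24.5 CPM in ING4-/- libraries (-0.76, SE 0.404, adjusted p = 0.141), and was called lower after background subtraction (-1.25, adjusted p = 0.0423). The dsRNA sensors Ifih1 and Eif2ak2 differed by -0.10 and -0.037 on the log2 scale, and the RNA-editing enzyme Adar, the exonuclease Isg20, the nucleotide hydrolase Samhd1 and Oasl2 by 0.34, 0.042, 0.61 and 0.25, with overlap in each. Samhd1 was at 166 CPM in ING4-/- LT-HSCs and between 43.6 and 65.5 CPM in the other 5 libraries.

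Among the membrane and other antiviral effectors 3 of 8 were called higher and 2 lower. Bst2 (chr8:71534255-71537456), or tetherin, which holds budding virions at the cell surface, had 40.5, 46.1 and 52.3 CPM in WT and 146, 72.6 and 116 CPM in ING4-/- libraries. Rtp4 (chr16:23520291-23614222), an interferon-induced chaperone of membrane receptors, had 52.8, 31.2 and 45.6 CPM in WT and 118, 61.1 and 139.6 CPM in ING4-/- libraries. Ifi35 (chr11:101448407-101458698), an interferon-induced leucine zipper protein, had 33.9, 46.4 and 50.2 CPM in WT and 105, 72.8 and 91.9 CPM in ING4-/- libraries. In each of the 3 genes the ING4-/- libraries lay above all WT libraries and ST-HSCs were the lowest ING4-/- library. The log2 fold changes were 1.27 for Bst2 (SE 0.316, adjusted p = 0.00880), 1.30 for Rtp4 (SE 0.384, adjusted p = 0.0194) and 1.05 for Ifi35 (SE 0.285, adjusted p = 0.0135). At most 5.25%, 16.7% and 12.0% of a WT count was at the background for these genes in turn. After background subtraction the log2 fold changes were 0.53, 0.66 and 0.37, with adjusted p values of 0.256, 0.235 and 0.392, and none was called. Rtp4 was also not called without the WT ST-HSC, WT MPP or ING4-/- MPP library (adjusted p = 0.0902, 0.0795 and 0.0561), nor Ifi35 without the WT LT-HSC library (adjusted p = 0.0588) or, by the fold minimum, without the ING4-/- LT-HSC library (log2 fold change 0.95).

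Mx1 and Mx2, dynamin-like GTPases that trap viral nucleocapsids, were the 2 members called lower (adjusted p = 6.93e-04 and 6.57e-04). C57BL/6 mice are known to carry non-functional alleles at this locus, and GENCODE lists Mx2 as a polymorphic pseudogene. Mx1 had 27, 79 and 132 counts in WT and 0, 0 and 1 in ING4-/- libraries, and Mx2 had 76, 70 and 48 counts in WT and 0 in every ING4-/- library, which allows up to 3 counts in each. These WT counts were 0.331 to 2.00 times the background for Mx1 and 0.734 to 0.939 times for Mx2, and after subtraction neither gene had enough counts to be tested. Parp14, a mono-ADP-ribosyltransferase, had 65.3, 68.6 and 61.2 CPM in WT and 26.7, 32.9 and 2.12 CPM in ING4-/- libraries. All ING4-/- libraries were below the WT libraries and the MPP library was far lowest, with 72 counts against 624 in the shallower WT MPP library. With that spread the log2 fold change of -1.66 (SE 0.852, adjusted p = 0.128) was not called, while without the ING4-/- MPP library Parp14 and Ifit3 were called lower and the count of lower members went from 2 to 4. Rsad2, or viperin, and the apoptosis factor Xaf1 overlapped between the groups, with log2 fold changes of -0.19 and 0.080.

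The interferon-inducible GTPases act on membranes of intracellular pathogens, and none of the 5 was called. Irgm1, a regulator of autophagy whose loss is known to impair HSC function, had 88.6, 106 and 126 CPM in WT and 172, 245 and 187 CPM in ING4-/- libraries. Its groups did not overlap and its adjusted p was 0.00975, with a log2 fold change of 0.92 (SE 0.233), under the minimum. Igtp, the most abundant of the 5 per kb of exon (29.8 CPM per kb in WT and 57.8 in ING4-/- cells), had 78.9, 42.4 and 59.6 CPM in WT and 191, 72.6 and 87.0 CPM in ING4-/- libraries (0.96, SE 0.438, adjusted p = 0.0941). Gbp2 was above WT in each population but by little in ST-HSCs and MPPs, with 123, 44.6 and 63.0 CPM against 55.2, 41.2 and 60.2 CPM (0.56, SE 0.421, adjusted p = 0.287). Gbp7 had 94.7, 85.9 and 108 CPM in WT and 63.4, 84.8 and 53.5 CPM in ING4-/- libraries. All ING4-/- values lay below the WT values (-0.52, SE 0.261, adjusted p = 0.121), and Gbp7 was called lower after background subtraction (-1.13, adjusted p = 0.00820). Gbp3 overlapped between the groups, with 80.2 CPM in ING4-/- LT-HSCs and between 21.3 and 42.5 CPM in the other libraries.

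**Figure D2:**
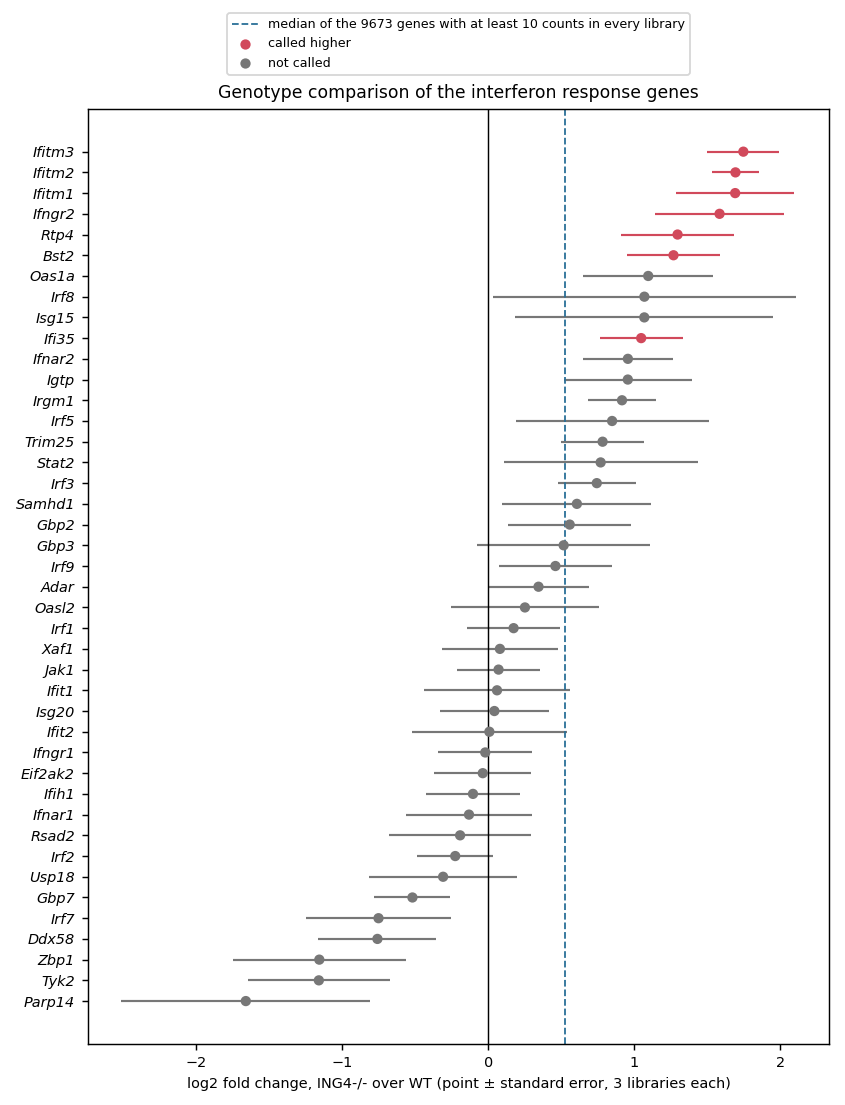
The log2 fold change of ING4-/- over WT in the edgeR fit (point, with bars of 1 standard error, 3 libraries per genotype) for the 42 members with 10 or more counts in each library, in order. The 7 members called higher are in red, and the dashed line is the median of 0.52 over the 9673 genes of this kind, with 19 members above it and 23 below.

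On the scale of CPM per kb of exon, which allows genes to be ranked, the Ifitm genes stood far above the rest in both genotypes. The mean levels in ING4-/- cells were 1844, 1423 and 1150.3 CPM per kb for Ifitm3, Ifitm2 and Ifitm1, followed by Bst2 at 124, Ifngr1 at 62.3, Igtp at 57.8, Ifi35 at 52.1, Jak1 at 50.4 and Rtp4 at 49.8. In WT cells the same 3 Ifitm genes had 549, 440.1 and 356 CPM per kb, followed by Ifngr1 at 63.1, Bst2 at 51.3 and Jak1 at 48.0. From Ifngr1 to Rtp4 in the ING4-/- order, the ranges of neighboring genes over the 3 libraries overlapped. The 7 members called higher had 655 to 3313 exonic bases (median 1094). The members not called that had at least 10 counts had 756 to 9306 (median 4397). The ranges overlapped, and a link between length and the calls was not tested.

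The background was computed in proportion to exon length. Of a member's WT counts, a median of 21.4% (LT-HSCs), 25.0% (ST-HSCs) and 13.1% (MPPs) was at the background. The counts were over 2 times the background in every WT library for 35 members, under 2 times in every WT library for 2 (Irf8 and Mx2), and below the background in at least 1 WT library for 5 (Irf8, Ifit3, Isg15, Mx1 and Mx2). When the background was subtracted from every count before the fit, 0 of the 43 members tested were called higher and 3 (Tyk2, Ddx58 and Gbp7) lower, where 5.61% of 19741 genes were called higher and 38.7% lower. Ifitm2 and Ifitm3 still had adjusted p values under 0.05, as given above. In the fit restricted to the 9673 genes, which centers the comparison on expressed genes, Ifitm2 (log2 fold change 1.19, adjusted p = 0.00193) and Ifitm3 (1.24, adjusted p = 0.0101) were called higher, and Tyk2 (-1.67, adjusted p = 0.0305) and Gbp7 (-1.02, adjusted p = 0.0297) lower, where 8.3% of the genes were called higher and 9.68% lower.

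**Figure D3:**
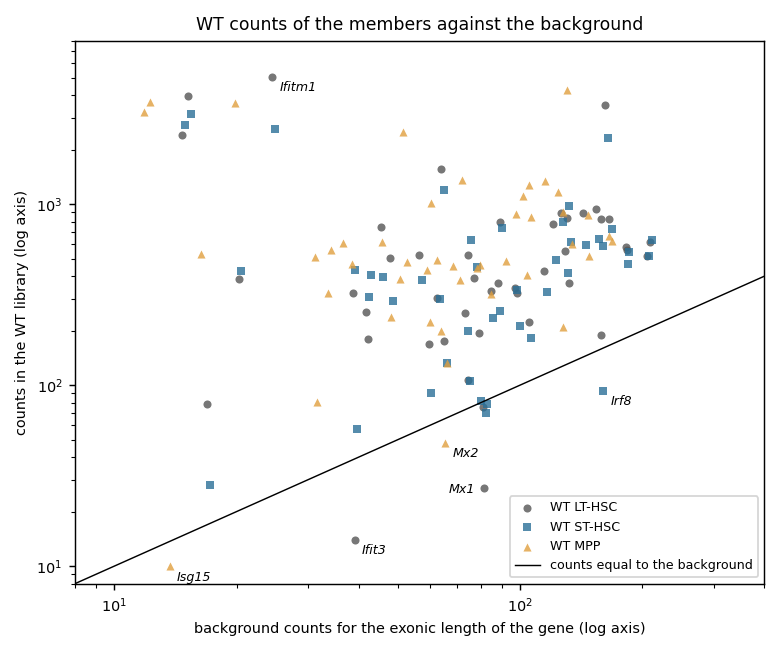
Counts of each member in each WT library (log y axis) against the background expected for its exonic length (log x axis), 1 symbol per member and library, with a line where they are equal. The 3 Ifitm genes lie far above the line at upper left, while points of Irf8, Ifit3, Isg15, Mx1 and Mx2 lie below it.

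The difference between genotypes varied by population. In LT-HSCs 29 of the 42 members were above WT, with a median log2 ratio of 0.69, against 0.55 over the 9673 genes. In ST-HSCs 28 were above WT with a median of 0.30, against 0.59, and in MPPs 20 were above WT with a median of -0.087, against 0.37. The members' median thus lay 0.14 above that of expressed genes in LT-HSCs and 0.29 and 0.46 below it in ST-HSCs and MPPs, with 1 library behind each side of each ratio. The ratio was highest in LT-HSCs for 21 members, in ST-HSCs for 14 and in MPPs for 7. Ifnar1 had log2 ratios of 1.05, -0.20 and -1.29 in LT-HSCs, ST-HSCs and MPPs, and Stat2 had 1.77, 0.76 and -1.20. Irf8 had 2.17, -0.89 and -0.92, and Gbp3 had 1.61, 0.32 and -0.95. Trim25 ran the other way, at 0.16, 0.93 and 1.25. These differences between populations were not tested, since each rests on 1 library per genotype. The ratio of the highest to the lowest ING4-/- library had a median of 1.97 over the 42 members and 2.04 over the 9673 genes.

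**Figure D4:**
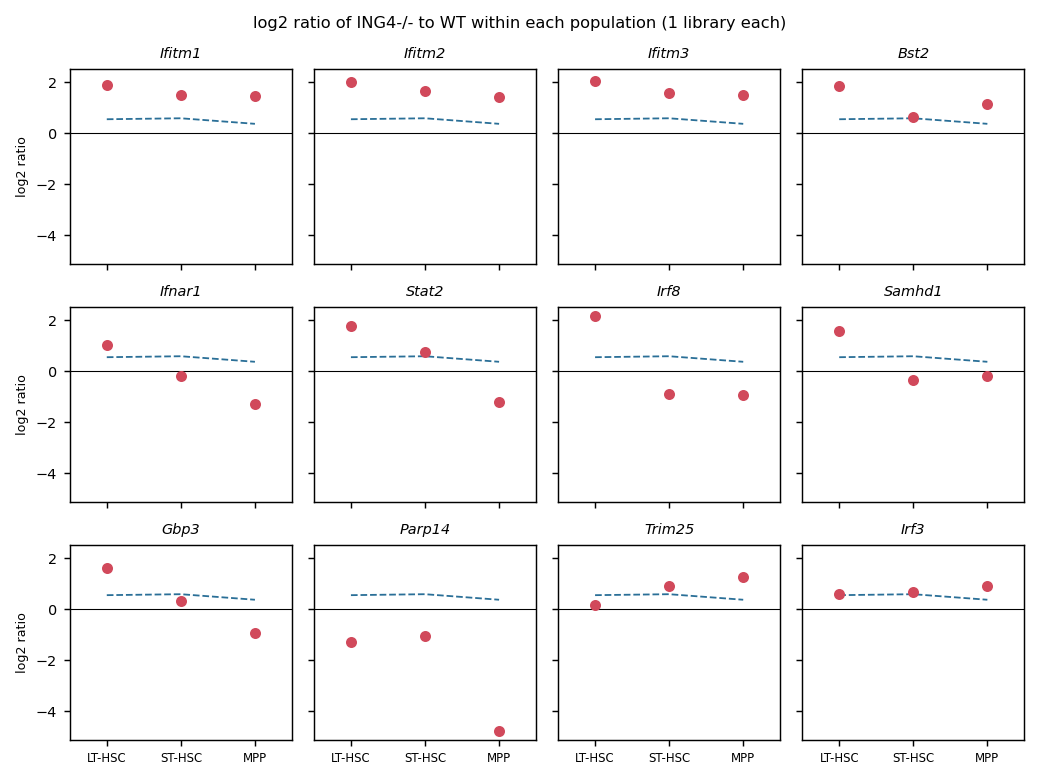
The log2 ratio of ING4-/- to WT CPM (y axis) in LT-HSCs, ST-HSCs and MPPs (x axis, 1 library of each genotype per point) for 12 members, with the median ratio over 9673 expressed genes as a dashed line. The Ifitm genes lie above the dashed line in all 3 populations, Ifnar1, Stat2 and Gbp3 go from above it in LT-HSCs to below 0 in MPPs, and Parp14 is below 0 throughout.

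Between populations, MPPs were compared with LT-HSCs across both genotypes, with genotype as a term in the edgeR fit. No member was called, and 0% of the 31001 genes tested were called, with 561 genes and 5 members at an unadjusted p under 0.05 and a lowest adjusted p of 0.962. DESeq2 called 208 genes higher and 227 lower of 26483, among them 1 member, Ifit3. The 5 members were Ifitm1 (log2 difference of MPPs from LT-HSCs -0.80), Ifitm3 (-0.50), Ifnar2 (0.77), Ifngr1 (0.70) and Oas1a (1.12). The direction from LT-HSCs to MPPs was the same in both genotypes for 18 of the 42 members, 13 of them higher in MPPs and 5 lower. In WT cells the highest library of a member was most often the MPP library (29 of 42), and in ING4-/- cells it was the LT-HSC library for 19 and the MPP library for 16. The median log2 difference of MPPs from LT-HSCs was 0.24 in WT and -0.26 in ING4-/- cells, which was not tested.

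The genotype comparison can be set beside the ISRE letters. Of the 18 members with ISRE letters 3 (Ifitm2, Ifitm3 and Bst2) were called higher, and of the 21 matched members without ISRE letters 3 (Ifngr2, Ifitm1 and Ifi35). Of the latter, Ifi35 has GAS letters. The median log2 fold changes of the members with and without ISRE letters were 0.54 and 0.34, which was not tested. Isg15, Ifit1 and Igtp, whose printed promoters carry these letters near the start, were not called.

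The wider pathway was followed in 153 other genes, of which 142 were tested. Called higher were 22 and called lower 24, where 7.98% of all genes tested were called higher and 56.7% lower. The median log2 fold change was 0.029. Among the 93 with 10 or more counts in each library, 22 (23.7%, against the 24.3% of such genes) were called higher. In that set 2 were called lower, where 6.53% of such genes were. The interferon ligands themselves had no counts in any ING4-/- library for all 19 genes, and 10 were called lower. Their WT counts were low, and in the median gene the lowest WT library was at 0.224 times the background. Ifnb1, singled out after its values were seen, had the highest, with 69, 62 and 123 counts, up to 9.06 times the background. Among other receptors and signal components 1 of 14 tested was called higher and 1 lower, among 102 other inducible effectors 19 higher and 13 lower, and among 16 negative regulators 2 higher and 0 lower. The largest log2 fold changes among called genes with at least 10 counts were those of Slfn2, Irf2bp1, Ifi47 and Ly6a. Slfn2, a Schlafen protein known for keeping immune cells quiescent, had 234, 104 and 127 counts in WT and 6281, 3874 and 699 in ING4-/- libraries (2.83, SE 0.807, adjusted p = 0.0165). Irf2bp1, a corepressor that binds IRF2, had 61, 113 and 230 counts in WT and 3021, 2133 and 2190 in ING4-/- libraries (2.47, SE 0.518, adjusted p = 0.00378), with its lowest WT count at 0.996 times the background. Ifi47, an immunity-related GTPase, had 570, 759 and 651 counts in WT and 10356, 10347 and 9161 in ING4-/- libraries (2.17, SE 0.210, adjusted p = 6.57e-04), and was called higher after background subtraction (1.47, adjusted p = 0.00216). Ly6a, an interferon-inducible gene that encodes the sort marker Sca-1, had 468, 311 and 622 counts in WT and 12558, 2049 and 5641 in ING4-/- libraries (2.14, SE 0.641, adjusted p = 0.0205), so the gate was set on a product of the same pathway. The 2 genes called lower in that set were Nlrc5, a transactivator of MHC class I genes, with 814, 685 and 707 counts in WT and 651, 382 and 516 in ING4-/- libraries (-2.25, SE 0.336, adjusted p = 8.48e-04), and Ddx60, a helicase that assists RIG-I, with 707, 573 and 542 counts in WT and 499, 524 and 724 in ING4-/- libraries (-1.81, SE 0.324, adjusted p = 0.00176). Both were also called lower after background subtraction, at -2.66 and -2.12.

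Markers of other marrow cells moved with genotype as well. The summed level of 10 neutrophil and monocyte markers was 432 to 688 CPM in WT and 1208 to 1425 CPM in ING4-/- libraries, with 3 of 9 tested called higher, and that of 8 erythroid markers was 28.4 to 52.1 CPM in WT and 108 to 217 CPM in ING4-/- libraries, with 4 of 8 called higher. Of 8 plasmacytoid dendritic cell markers, a type known for its interferon production, 4 were at 0 in every ING4-/- library. Of those 4, Cox6a2 was at 0 in every WT library too, Klk1 and Ly6d had WT counts at most 0.580 times the background, and Siglech had 1.29 to 1.87 times. The 8 markers summed to 494 to 546 CPM in WT and 1152 to 1534 CPM in ING4-/- libraries. The rise came mainly from Ptprcap, which was called higher, with 346, 277 and 309 CPM in WT and 1364, 1041 and 1035 CPM in ING4-/- libraries. Siglech and Pacsin1 were called lower. Ccr9 had 39.9 to 67.7 CPM in WT and at most 7.02 CPM in ING4-/- libraries, and Tcf4 averaged 139 and 134 CPM. The summed macrophage markers had 118 to 123 CPM in WT and 30 to 40.4 CPM in ING4-/- libraries, with 2 of 9 (Csf1r and Marco) called lower. The WT counts of these 2 were 0.684 to 1.66 times the background, and C1qb was above WT in ING4-/- ST-HSCs and MPPs (7.05 and 12.0 CPM, against 3.88 and 3.43). The 8 B cell markers summed to 107 to 135 CPM in WT and 66.6 to 125 CPM in ING4-/- libraries. Of these, 6 were at 0 in every ING4-/- library, with WT counts 0.174 to 3.92 times the background, while Cd79b was called higher, at a mean of 85.7 against 28.3 CPM. The 10 T and NK cell markers summed to 87.0, 119 and 169 CPM in WT and 61.5, 308 and 282 CPM in ING4-/- libraries. Of these, 6 were at 0 in every ING4-/- library, with WT counts 0.0242 to 3.14 times the background, while Nkg7 had 8.21, 48.6 and 90.9 CPM in WT and 26.9, 267 and 228 CPM in ING4-/- libraries. The 6 megakaryocyte markers summed to 215, 339 and 195 CPM in WT and 399, 1056 and 271 CPM in ING4-/- libraries. Of these, Pf4 and Gp1bb were called higher and Gp6 lower, with WT counts of Gp6 0.835 to 1.99 times the background. The part of all these cells in the members' levels was not tested.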

How the data were processed

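Bulk RNA-seq of 6 libraries was analysed, 3 WT and 3 ING4-/-. The deposited files hold raw counts per gene, which the authors had made from reads aligned to mm10 by a sequencing provider; the aligner, counter, read length and strand setting are not given in the sources used here. Identifiers were matched to GENCODE vM21, which held 49056 of 49315. The members and the other gene lists were chosen with earlier results of these data known.

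Counts were fitted in edgeR 4.0.16 (R 4.3.3, limma 3.58.1) with TMM normalization, filterByExpr and genotype as the only term; Benjamini-Hochberg adjustment ran over all genes tested, and a gene was called at an adjusted p below 0.05 with a log2 fold change beyond 1 in either direction. DESeq2 1.42.0, other scalings and filters, background subtraction, thinning of the ING4-/- libraries to WT depth and leaving out libraries were alternatives. The background was the count density of 1429 olfactory and vomeronasal receptor genes times exonic length. Per-population log2 ratios used a prior count of 2. Populations pair libraries across genotypes: same-population deviations from the genotype means correlated at 0.143, 0.110 and 0.121 over 9673 genes. No 2 libraries of a genotype agreed within sampling noise. The script was tested on simulated data. Named members were those called, those of 1 direction in all 3 populations with at least 10 counts in every library, and the most abundant per kb of each role; of the other pathway genes, up to 4 highest and 4 lowest called with 10 counts. A count of 0 allows up to 3 counts, for counting error only.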

Additional observations from a re-analysis of the deposited data

Results flagged for a closer look

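Ifnar1 and Stat2 had effects of opposite direction in different populations, and in both the difference between populations was not tested, since each population has 1 library per genotype. The log2 ratio of ING4-/- to WT for Ifnar1 was 1.05 (LT-HSCs), -0.20 (ST-HSCs) and -1.29 (MPPs, the lowest). For Stat2 it was 1.77 (LT-HSCs), 0.76 (ST-HSCs) and, again lowest, -1.20 (MPPs).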

How the results depend on the processing

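The number of members called higher was 7, and it was 11 by adjusted p alone, 15 with upper-quartile normalization, 4 with RLE size factors, 4 with DESeq2, 2 among genes with at least 10 counts in each library, 0 after background subtraction, 3 without both MPP libraries and 3 among protein-coding genes, and between 5 and 9 when 1 library was left out. The number called lower was 2, and it was 4 with RLE size factors, 4 with DESeq2 and 4 without both MPP libraries, and between 2 and 4 when 1 library was left out. Over all genes, the main fit called 2475 higher and 17566 lower of 31001, and DESeq2 called 1555 higher and 24207 lower of 42309. Such totals were not computed for the other scalings, protein-coding genes alone or libraries left out, so those counts are not measured against all genes. Ifitm2 and Ifitm3 were called in 17 of 18 alternatives, Ifitm1 in 14, Ifngr2 in 13, Bst2 in 11, Rtp4 in 9 and Ifi35 in 8. Ifngr2 was not called without the WT ST-HSC library (adjusted p = 0.0660). With the ING4-/- libraries thinned to WT depth, Ifitm1 (log2 fold change 1.49), Ifitm2 (1.49) and Bst2 (1.02) were still called, while Ifi35 (0.82) was not. The median log2 fold change of 0.25 became 0.85 with upper-quartile normalization and -0.091 among genes with at least 10 counts, and lay between 0.097 and 0.63 when 1 library was left out, the latter without ING4-/- ST-HSCs. Scaling moved the median of the expressed genes as well, from 0.52 to 1.12 with upper-quartile and 0.17 with RLE factors. DESeq2 called 1 member higher in MPPs than in LT-HSCs, against 0. Among the members that were called or of 1 direction in all populations, the sign reversed for Gbp2 after background subtraction (-0.070) and for Gbp7 with upper-quartile normalization (0.080). It also reversed for Irf9 among genes with at least 10 counts (-0.040) and after background subtraction (-0.081). Of the other members, Jak1 (-0.65), Irf1 (-0.48), Ifit1 (-0.10), Ifit2 (-0.40), Isg20 (-0.56) and Oasl2 (-0.29) turned negative after background subtraction. They were negative in DESeq2 as well, as were Xaf1 and Ifit3. None of these was called. The cause was not tested. Population as a replicate block gave 8 members higher and 2 lower, adding Oas1a, and changed no other call. The depth of the WT libraries and their background limit all values of members near the background.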
